A study of Mus musculus with 6 samples.

Results

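The 9 genes described here encode claudins and other proteins of the tight junction: Cldn1, Cldn3, Cldn4, Cldn6, Cldn7, Ocln, Tjp1, Tjp3 and Cgn. They were chosen by symbol, and each matched 1 row of the 49671 genes in the deposited table. RNA had been sequenced from LKPR EPCAM+ cells, an epithelial line made from a squamous cell carcinoma of mouse skin, with 2 libraries in each of 3 groups. KDNTN1 cells carried a lentiviral vector against Ntn1, the gene of the secreted guidance ligand netrin-1. KDUNC5B cells carried one against Unc5b, whose product is a receptor for netrin-1, and EmptyVector cells carried the vector with no hairpin. All 3 groups shared a genotype with Lgr5CreER, p53fl/fl and Rosa26-YFP+/+, in which Cre driven from the Lgr5 gene deletes p53 and switches on a YFP reporter. They also shared a pLKO.1-puro vector backbone, 6 days of culture and a sort for living YFP+ EPCAM+ cells. The groups are therefore models in a single line, EPCAM-negative cells were outside the sort, and no source used here gives the number of hairpins per target. No label says whether the 2 libraries of a group were grown apart. The p-values thus reflect the spread between these libraries alone, and that spread may be technical.

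Tight junctions seal the space between neighbouring epithelial cells near their apical side. Claudins are small membrane proteins with 4 passes through the membrane, and their strands set which ions and solutes can pass between cells, so that the mix of claudins gives an epithelium its permeability. Occludin, encoded by Ocln, is a membrane protein of the same strands. The zonula occludens proteins ZO-1 and ZO-3, encoded by Tjp1 and Tjp3, and cingulin, encoded by Cgn, lie on the cytoplasmic side and tie the strands to actin. In epidermis CLDN1 is needed for the water barrier in mice. CLDN3 and CLDN4 are typical of simple and glandular epithelia and many carcinomas, CLDN7 binds EPCAM, and CLDN6 is mainly a claudin of embryonic epithelia.

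Values are in the authors' unit, reads scaled to 20 M per library and rounded, and means carry the SD over n = 2 libraries. Depth, recovered from the spacing of the values, was 8.41 and 6.54 M reads in KDNTN1 libraries 1 and 2, 9.36 and 8.63 M in those of KDUNC5B and 10.2 and 8.75 M in those of EmptyVector. Each targeted gene was lowest in its own knock-down. Ntn1 was at 359 and 431 in KDNTN1, 1319 and 771 in KDUNC5B and 1566 and 2588 in EmptyVector. Unc5b was at 2311 and 2382, 419 and 352, and 1527 and 1573 in the same order of groups. Differences were tested with limma on log2(value + 5) over 15330 genes, and a gene was called at an adjusted p under 0.05. Markers of other cell types were low in every library, with summed values of 104 to 263 for 6 endothelial, 128 to 288 for 6 fibroblast and 8 to 21 for 6 immune genes, against 46312 to 61326 for 6 epithelial genes. Cldn5, the claudin of endothelium, did not exceed 5 in any library, and Cldn11, that of oligodendrocytes and Sertoli cells, did not exceed 2. The endothelial sum was 201 and 263 in KDNTN1, 107 and 104 in KDUNC5B and 126 and 110 in EmptyVector. The fibroblast sum was 288 and 180, 216 and 137, and 128 and 128 in that order of groups. Of the endothelial genes, Cdh5 was at 86 and 113 in KDNTN1, 2 and 0 in KDUNC5B and 0 in both EmptyVector libraries, while Kdr and Tek were at 3 or below in every library. Pecam1 was at 90 and 107 in KDNTN1, 96 and 88 in KDUNC5B and 104 and 94 in EmptyVector, most of the sum outside KDNTN1, and was not called. Esam was at 21 and 40, 9 and 14, and 18 and 9 in that order of groups and lay below the filter.

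The 5 claudin genes among the members split in KDNTN1: Cldn1 rose and Cldn3, Cldn4, Cldn6 and Cldn7 fell. Cldn1 was 5.26-fold higher than in EmptyVector, and the falls ran between 1.39-fold for Cldn7 and 1.99-fold for Cldn6. In KDUNC5B Cldn1 was the only member called, at 2.83-fold higher, and it was again a rise. Ocln, Tjp1 and Cgn were not called in any comparison. Tjp3 lay near the floor of detection and was not tested.

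**Figure D1:**
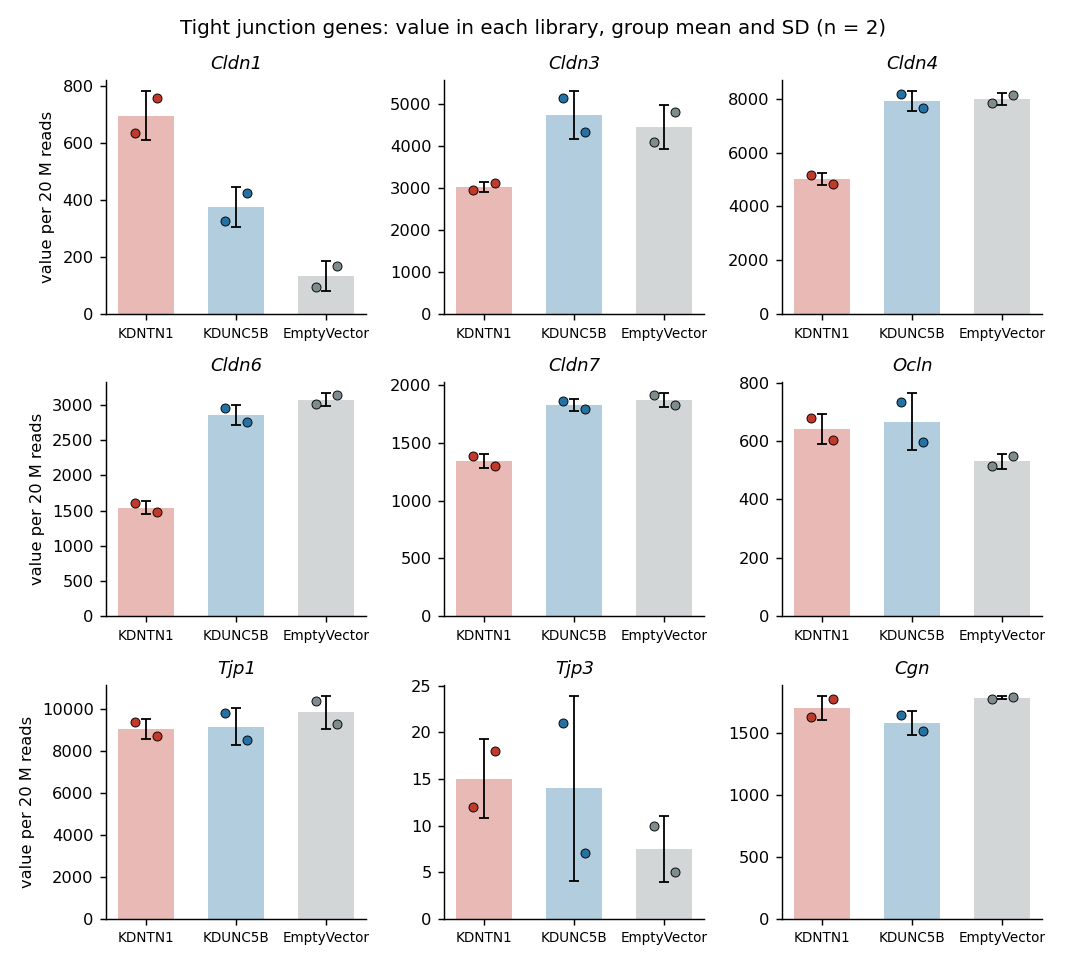
Value per 20 M reads (vertical axis, linear and starting at 0) of the 9 genes in the libraries of KDNTN1, KDUNC5B and EmptyVector. Points are libraries, bars group means and whiskers the SD over 2 libraries. Cldn3, Cldn4, Cldn6 and Cldn7 are lower in both KDNTN1 libraries than in the other 4 libraries, and Cldn1 is higher in both.

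Cldn6 (chromosome 17, 23679249 to 23682446 on the plus strand of GRCm38) was at 1605 and 1477 in KDNTN1, 2952 and 2752 in KDUNC5B and 3011 and 3137 in EmptyVector. Both KDNTN1 libraries lay below every other library, and both KDUNC5B libraries lay just below those of EmptyVector. It fell by 0.99 on the log2 scale in KDNTN1 (± 0.11 SE, limma adjusted p = 0.00104). Its call was kept under each of the 15 alternative settings tried, with adjusted p between 0.000961 and 0.0298.

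Cldn4 (chromosome 5, 134945119 to 134946934, minus strand) had the highest level per kilobase of exon of any claudin gene in every group. It was at 5176 and 4850 in KDNTN1, 8192 and 7658 in KDUNC5B and 7837 and 8145 in EmptyVector. The KDNTN1 libraries stood apart from the other 4, and KDUNC5B and EmptyVector libraries overlapped. Cldn4 fell 1.59-fold, by 0.67 on the log2 scale (± 0.10 SE, limma adjusted p = 0.00392). The call was lost without KDNTN1 library 1 (adjusted p = 0.0555) or library 2 (0.077), and the difference was then -0.72 and -0.63.

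Cldn3 lies on the same chromosome (5, 134986214 to 134987472, plus strand), and a gap of 39.3 kb separates it from Cldn4. It was at 2944 and 3107 in KDNTN1, 5140 and 4338 in KDUNC5B and 4084 and 4811 in EmptyVector. Again the KDNTN1 libraries were the lowest, and those of the other groups were interleaved. Cldn3 fell by 0.55 on the log2 scale (± 0.13 SE, limma adjusted p = 0.0253). This call was lost under 6 of the 15 alternatives, among them without KDNTN1 library 1 (adjusted p = 0.203) or 2 (0.15) and without EmptyVector library 2 (0.076). Its exons share 40 bases with those of Wbscr25 on the other strand, and the strand setting of the counting is not given in the sources used here.

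Cldn7 (chromosome 11, 69964779 to 69967885, plus strand) was at 1386 and 1297 in KDNTN1, 1862 and 1790 in KDUNC5B and 1908 and 1822 in EmptyVector. It had the smallest of the 4 falls, 0.47 on the log2 scale (± 0.11 SE, limma adjusted p = 0.0263). The call was lost under 5 of the 15 alternatives, among them without KDNTN1 library 1 (adjusted p = 0.149) or 2 (0.222), without EmptyVector library 1 (0.0514) and without the variance trend (0.0819). Epcam, whose product binds CLDN7, was at 10127 and 9736 in KDNTN1 and 8032 and 9336 in EmptyVector and was not called (limma adjusted p = 0.27). Cdh1, also among the epithelial marker genes, was at 9380 and 8767 in KDNTN1, 6446 and 5719 in KDUNC5B and 7460 and 8419 in EmptyVector. Neither knock-down was called against EmptyVector for Cdh1 (limma adjusted p = 0.299 and 0.0675). Between the knock-downs Cdh1 was called, 1.49-fold higher in KDNTN1 (limma adjusted p = 0.0228).

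Cldn1 (chromosome 16, 26356642 to 26371841, minus strand) went the other way. It was at 635 and 758 in KDNTN1, 325 and 426 in KDUNC5B and 96 and 169 in EmptyVector. No library of a group overlapped another group's, with KDNTN1 highest and EmptyVector lowest. The EmptyVector values stand for 49 and 74 reads, so Cldn1 was detected but low there, and by ratio they differ from each other more than the libraries of either knock-down do. Cldn1 rose by 2.40 on the log2 scale in KDNTN1 (± 0.27 SE, limma adjusted p = 0.00109), a call kept under each of the 15 alternative settings with adjusted p up to 0.0276. In KDUNC5B it rose by 1.51 (± 0.27 SE, limma adjusted p = 0.0107). That call was lost without KDUNC5B library 2 (adjusted p = 0.0932) and with no filter on low values (0.0694). Krt5, the keratin gene of basal epidermal cells, had the same order of groups, at 1034 and 1027 in KDNTN1, 697 and 776 in KDUNC5B and 287 and 320 in EmptyVector. It rose in both knock-downs (limma adjusted p = 0.000327 and 0.00136). Krt14, the partner of Krt5 in basal cells, was at 5233 and 4795, 1759 and 3817, and 3917 and 1692 in that order of groups and was not called in either (0.164 and 0.992). Of the keratin genes of simple epithelia, Krt18 rose in KDNTN1 (limma adjusted p = 0.0234) and was not called in KDUNC5B (0.168), and Krt8 was called in neither (0.154 and 0.776). The part of these keratins in the Cldn1 result was not tested.

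Over the 8 tested members, 5 were called in KDNTN1 against EmptyVector, of which 1 rose and 4 fell, where 15.1% of all genes tested were called, 8.04% higher and 7.06% lower. The median log2 difference was -0.30 over the 8 members and -0.02 over all genes. In KDUNC5B 1 of 8 was called, higher, against 12.0% of all genes (5.90% higher and 6.07% lower), with medians of -0.02 and 0.04. Without KDNTN1 library 1 and without library 2, the log2 difference in KDNTN1 was 2.5 and 2.3 for Cldn1 and -1.05 and -0.94 for Cldn6. It was -0.72 and -0.63 for Cldn4, -0.51 and -0.59 for Cldn3 and -0.52 and -0.43 for Cldn7. Fewer members and fewer of all genes were called in these fits, which leave 1 library in KDNTN1. Groups did not overlap for 7 of the 8 members in KDNTN1 against EmptyVector (2 higher and 5 lower), beside 58.2% of all genes (28.0% higher and 30.2% lower). In KDUNC5B they did not overlap for 4 (2 higher and 2 lower), beside 52.0% of all genes (28.7% higher and 23.2% lower), so this share is near the background. Both comparisons share the EmptyVector libraries, so they are not independent of each other. In bulk RNA a lower level per cell and fewer cells that express a gene cannot be told apart. The share of the total in ribosomal protein genes was lower in KDNTN1, at 1.75% and 1.79% against 2.14% and 2.29% in EmptyVector, and its part in these results was not tested, nor was that of the endothelial and fibroblast sums above.

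**Figure D2:**
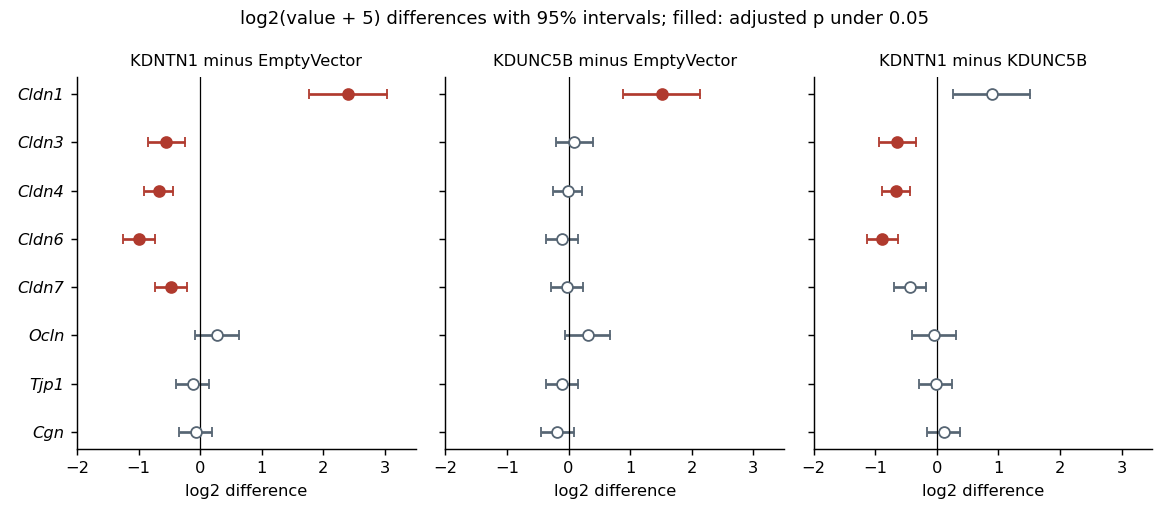
Difference on the log2(value + 5) scale (horizontal axis) with its 95% interval from limma, for the 8 tested members in 3 comparisons, with red filled points called at an adjusted p under 0.05. Cldn1 lies to the right of 0 in all 3 panels, and the other 4 claudins lie to the left in both panels with KDNTN1 on top.

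The knock-downs were also set against each other. Neither target was abolished, and Unc5b was called higher in KDNTN1 than in EmptyVector (limma adjusted p = 0.0193). Ntn1 was 1.99-fold lower in KDUNC5B than in EmptyVector, which did not pass (limma adjusted p = 0.0638), so the groups do not differ in 1 target each. Cldn3, Cldn4 and Cldn6 were lower in KDNTN1 than in KDUNC5B, by 0.64 ± 0.13 SE (limma adjusted p = 0.0247), 0.66 ± 0.10 (0.0094) and 0.89 ± 0.11 (0.00402) on the log2 scale. Cldn7, at -0.44 ± 0.11, did not pass (adjusted p = 0.0541), and neither did Cldn1, at 0.89 ± 0.27 (0.0939). These 3 calls of 8, all lower, compare with 7.10% of all genes called (4.15% higher and 2.95% lower). Groups did not overlap for 5 of the 8 (1 higher and 4 lower), beside 55.6% of all genes (24.4% higher and 31.3% lower). Both Cldn7 and Cldn1 passed when both EmptyVector libraries were left out of the fit (adjusted p = 0.0322 and 0.0148) or when either of them was (0.0328 and 0.0318 for Cldn7, 0.0185 and 0.0191 for Cldn1). The 3 groups share one estimate of the spread in the fit. With 1 knock-down library left out, the log2 difference of Cldn6 lay between -0.95 and -0.83. That of Cldn4 lay between -0.71 and -0.61 and that of Cldn3 between -0.76 and -0.52. Over the 15 alternatives the call was lost under 2 for Cldn6, 4 for Cldn4 and 7 for Cldn3. Each call was lost without either KDNTN1 library. Fewer of all genes were called as well whenever a knock-down library was left out.

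For the 4 claudin genes that were not called in KDUNC5B, the intervals bound the difference from EmptyVector. The 95% interval of the log2 difference ran from -0.25 to 0.22 for Cldn4, -0.29 to 0.23 for Cldn7, -0.36 to 0.15 for Cldn6 and -0.21 to 0.39 for Cldn3. All 4 intervals include 0, and any difference within these bounds, in either direction, remains compatible with the values.

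Of the members outside the claudins, Ocln, Tjp1 and Cgn were tested. Ocln (chromosome 13, 100496507 to 100552718) was at 678 and 605 in KDNTN1, 735 and 598 in KDUNC5B and 513 and 549 in EmptyVector. All 4 knock-down libraries lay above both EmptyVector libraries. The log2 differences of 0.27 ± 0.16 and 0.32 ± 0.16 SE did not pass (limma adjusted p = 0.298 and 0.243). Tjp1 (chromosome 7, 65296165 to 65527781) was at 9368 and 8693 in KDNTN1, 9791 and 8524 in KDUNC5B and 10400 and 9297 in EmptyVector. Its libraries overlapped in each comparison, and the intervals of its log2 difference from EmptyVector ran from -0.39 to 0.14 and from -0.37 to 0.16. Cgn (chromosome 3, 94760069 to 94786492) was at 1634 and 1774, 1650 and 1517, and 1781 and 1797 in the same order of groups, with limma adjusted p = 0.724 and 0.377 against EmptyVector.

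Tjp3 (chromosome 10, 81273207 to 81291581) was at 12 and 18 in KDNTN1, 21 and 7 in KDUNC5B and 10 and 5 in EmptyVector. These values stand for 2 to 10 reads, around a floor of 3 reads that equals 5.90 to 9.17 in this unit. With no filter on low values no difference of Tjp3 from EmptyVector was detected (limma adjusted p = 0.514 and 0.601). At so few reads this does not exclude one. Its exons share 40 bases with Apba3 on the other strand.

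Levels of different genes can be set side by side only per length, so values were divided by the length of all annotated exons of each gene. In EmptyVector the order per kilobase was Cldn4 (4400 ± 120), Cldn3 (3533 ± 408), Cldn6 (1786 ± 51.8), Tjp1 (1261 ± 99.9), Cldn7 (957.4 ± 31.2), Cgn (297.1 ± 1.88), Ocln (125.8 ± 6.03), Cldn1 (27.4 ± 10.7) and Tjp3 (2.02 ± 0.952). In KDNTN1 Tjp1 (1156 ± 61.1) stood above Cldn6 (895.4 ± 52.6), and Cldn1 (143.9 ± 18.0) came level with Ocln (151.9 ± 12.2), whose values overlapped. KDUNC5B kept the order of EmptyVector, with Cldn1 at 77.6 ± 14.8. Neighbours in these orders did not overlap between libraries, apart from Cldn1 and Ocln in KDNTN1.

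The claudin family as a whole was narrow in these cells. Of 33 claudin genes in the table, 14 were at 0 in all 6 libraries and 9 more had a mean under the filter of 20, with no value above 39. The 10 that were tested summed to 7583 and 7459 per kilobase in KDNTN1, 11956 and 10901 in KDUNC5B and 10837 and 11628 in EmptyVector. This sum was lower in both KDNTN1 libraries than in the other 4. Cldn3, Cldn4, Cldn6 and Cldn7 together made up 90.1% and 89.3% of it in KDNTN1, 94.2% and 93.4% in KDUNC5B and 94.9% and 95.2% in EmptyVector. The share of Cldn1 was 1.73% and 2.10% in KDNTN1, 0.562% and 0.807% in KDUNC5B and 0.183% and 0.300% in EmptyVector. Cldn4 exceeded Cldn1 per kilobase by 21.7-fold and 17.1-fold in KDNTN1, 67.2-fold and 47.9-fold in KDUNC5B and 218-fold and 128-fold in EmptyVector. These sums and shares are descriptions with no test, and Cldn1 remained a minor claudin transcript in every group.

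**Figure D3:**
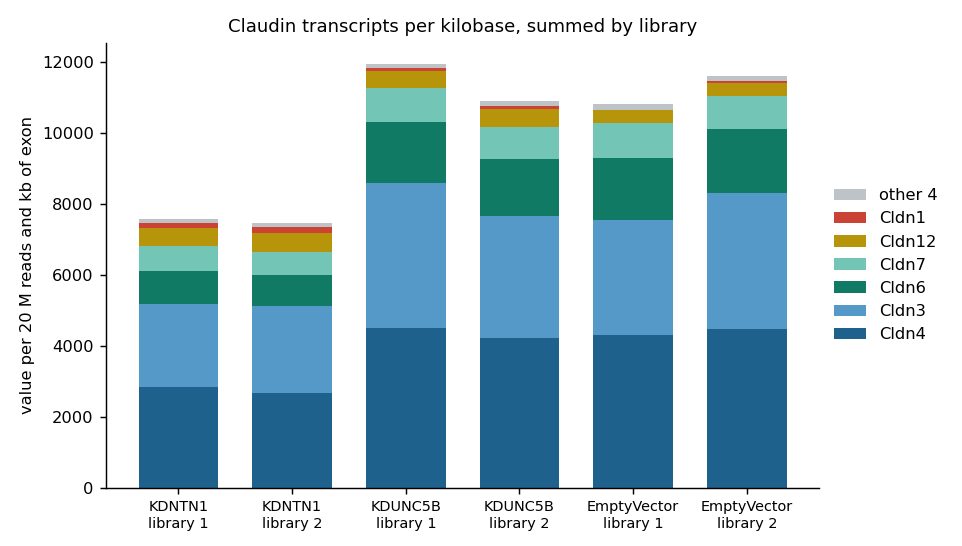
Stacked values per 20 M reads and kilobase of exon (vertical axis, starting at 0) of the 10 tested claudin genes in each of 6 libraries, with 4 low genes pooled as other. The KDNTN1 bars reach 7583 and 7459, and the KDUNC5B and EmptyVector bars 10837 to 11956.

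Cldn12, a claudin that lacks the usual C-terminal motif for binding ZO proteins, was the claudin outside the members with the highest level per kilobase. It was at 2095 and 2226 in KDNTN1, 2110 and 2156 in KDUNC5B and 1503 and 1532 in EmptyVector. The knock-down libraries lay above both EmptyVector libraries and overlapped each other. It rose by 0.51 ± 0.11 SE (limma adjusted p = 0.0171) and 0.49 ± 0.11 (0.0235) on the log2 scale. These calls were lost under 4 and 8 of the 15 alternatives. Both were lost without the variance trend, with a replicate block and without either library of the knock-down concerned. The second was also lost with no filter, in the fit of 2 groups and without either KDNTN1 library. Cldn23 was at 140 and 138, 92 and 116, and 242 and 231 in the same order of groups. It was 2.27-fold lower in KDUNC5B (log2 difference -1.16 ± 0.22 SE, limma adjusted p = 0.0117). That call was lost without KDUNC5B library 1, where the fall was 2.04-fold. In KDNTN1 Cldn23 was 1.70-fold lower, which did not pass (log2 difference -0.75, limma adjusted p = 0.0519). Between the knock-downs Cldn23 was not called (limma adjusted p = 0.306). Cldn9, which lies on the other strand with a gap of 137 bases to Cldn6, was at 43 and 28, 94 and 60, and 35 and 32 and was not called in any comparison. Cldn12 and Cldn9 were picked for mention after their values were seen.

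Beyond the members, 71 further genes of the tight junction and its polarity proteins, proteases and other regulators were in the table and 44 were tested. In KDNTN1 3 rose and 5 fell, and in KDUNC5B 2 rose and 9 fell, against the 15.1% and 12.0% of all genes. The median log2 differences of the list were -0.01 and -0.16, beside -0.02 and 0.04 over all genes. The number of list genes called depended strongly on which library was left out. The number of all genes called moved widely as well, and the ranges of both are given at the end. None of the 3 tested MARVEL and tricellular genes and none of the 4 tested genes of the junctional adhesion molecule family was called in any comparison with limma. Of all genes 15.1% and 12.0% were called against EmptyVector and 7.10% between the knock-downs, so a lack of calls in such small sets says little. Marveld2, which encodes tricellulin, was at 262 and 300 in KDNTN1, 336 and 315 in KDUNC5B and 297 and 236 in EmptyVector. Lsr was at 2373 and 2211, 2105 and 1987, and 2140 and 1980 in that order. Marveld3 was at 190 and 217, 246 and 174, and 303 and 489. It was 1.95-fold and 1.89-fold lower in the knock-downs, which did not pass (limma adjusted p = 0.0583 and 0.0734).

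Of the 14 scaffold and plaque genes tested, 1 rose and 2 fell in KDNTN1, beside 15.1% of all genes called (8.04% higher and 7.06% lower). In KDUNC5B 1 rose and 4 fell, beside 12.0% (5.90% higher and 6.07% lower). Magi2, a membrane-associated guanylate kinase gene, was 3.23-fold higher in KDNTN1 and 3.90-fold higher in KDUNC5B. It was at 164 and 165, 190 and 208, and 75 and 27 in KDNTN1, KDUNC5B and EmptyVector (limma adjusted p = 0.0202 and 0.0138, up to 0.138 and 0.101 over the alternatives). Without EmptyVector library 1 the folds were 6.09 and 7.37, and without EmptyVector library 2 they were 2.19 and 2.65. Both Magi2 calls were lost with no filter and without either library of the knock-down concerned. The call in KDNTN1 was also lost without the variance trend. Tjap1, whose product is a tight junction-associated protein, was 2.09-fold lower in KDNTN1 (limma adjusted p = 0.00274, and 0.0506 without KDNTN1 library 2). It was at 1479 and 1422 in KDNTN1, 1930 and 1638 in KDUNC5B and 3378 and 2678 in EmptyVector. Its fall in KDUNC5B was 1.70-fold (limma adjusted p = 0.0135), a call lost under 5 of the 15 alternatives. These were no filter, no variance trend, and the fits without either KDNTN1 library or without KDUNC5B library 2, where the fall was 1.57-fold. Cgnl1, which encodes paracingulin, the paralog of cingulin, was at 6078 and 5960, 6431 and 6228, and 8309 and 9144, and it was lower in both knock-downs (limma adjusted p = 0.0106 and 0.0229). It was picked for mention after its values were seen, and its calls were lost under 3 and 9 of the 15 alternatives. Both were lost without the variance trend and without either library of the knock-down concerned. The second was also lost with no filter, with a replicate block and in the fit of 2 groups. It was lost without either KDNTN1 library or EmptyVector library 2 as well.

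Of the 8 polarity genes tested, 1 rose and 1 fell in KDNTN1, beside 15.1% of all genes called, and 1 fell in KDUNC5B, a share near the 12.0% of all genes. Pard6g, which encodes a PAR6 adaptor, was at 661 and 609 in KDNTN1, 357 and 424 in KDUNC5B and 250 and 316 in EmptyVector. It was 2.24-fold higher in KDNTN1 (limma adjusted p = 0.00454). That call was lost without either KDNTN1 library, where the folds were 2.15 and 2.34. In KDUNC5B Pard6g was 1.38-fold higher, which did not pass (limma adjusted p = 0.146). Crb3, which encodes an apical Crumbs protein, was at 209 and 187 in KDNTN1, 141 and 93 in KDUNC5B and 222 and 318 in EmptyVector. It was 2.31-fold lower in KDUNC5B (limma adjusted p = 0.0261, up to 0.167 over the alternatives). In KDNTN1 Crb3 was 1.36-fold lower, which did not pass (limma adjusted p = 0.341). Amot, which encodes angiomotin and was listed with the scaffolds, was 2.14-fold lower in KDUNC5B, at 1879 and 1156 against 2547 and 3933 in EmptyVector (limma adjusted p = 0.0266, up to 0.158). Crb3 and Amot each lost their call under 8 of 15 alternatives, including without KDUNC5B library 2, EmptyVector library 2 or either KDNTN1 library. Mpdz, which encodes a scaffold with many PDZ domains, was at 1653 and 1532 in KDNTN1, 968 and 975 in KDUNC5B and 1932 and 1786 in EmptyVector. Both KDUNC5B libraries lay below the other 4. It fell by 0.93 on the log2 scale in KDUNC5B against EmptyVector (± 0.12 SE, limma adjusted p = 0.00227), a call kept under each of the 15 alternatives with adjusted p up to 0.0223. Between the knock-downs, 1 of the 44 list genes was called, beside 7.10% of all genes, and this was Mpdz, higher in KDNTN1 (limma adjusted p = 0.0118). That call was lost without any 1 of the 4 knock-down libraries, where the fold was 1.58 to 1.70. In the fit of the 2 groups alone 8 list genes were called, and 1856 of all genes against 1088 in the main fit. Pard6g, Crb3 and Amot were not called between the knock-downs in the main fit. Mpdz, Marveld2, Marveld3 and Lsr were picked for mention after their values were seen.

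**Figure D4:**
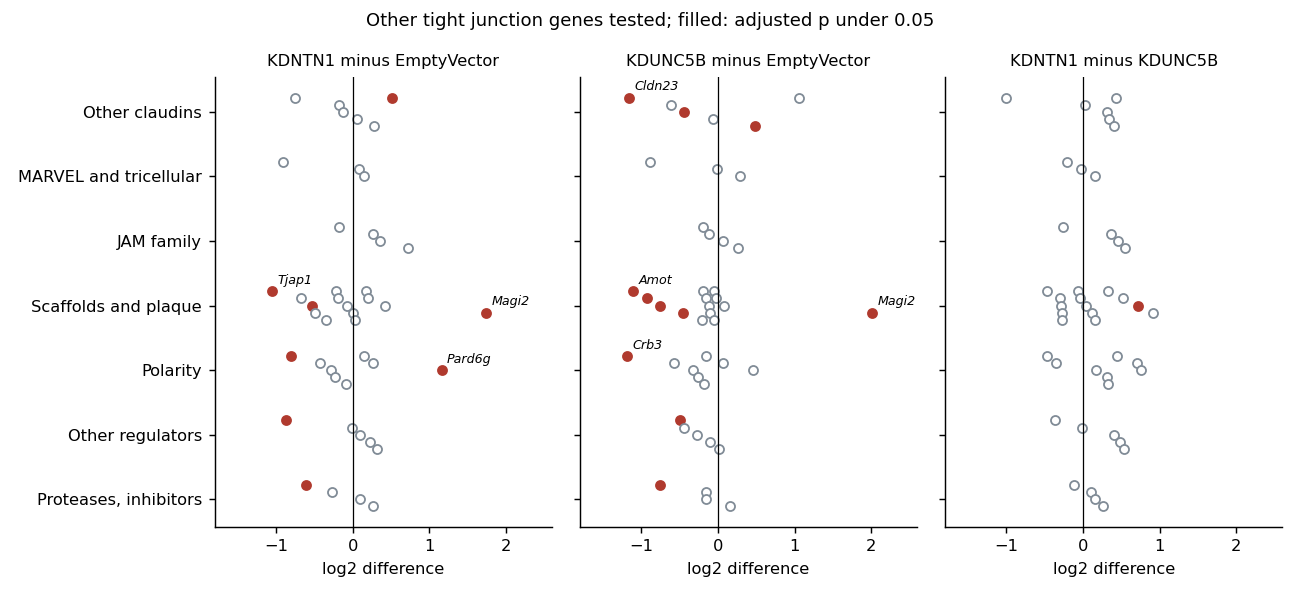
Difference on the log2(value + 5) scale (horizontal axis) of the 44 other tested tight junction genes by set, in 3 comparisons, with red filled points called at an adjusted p under 0.05. Called genes with a difference of at least 1 in size carry their names, among them Magi2 at 1.74 in the first and 2.01 in the second panel.

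Likeness of pattern over the 6 libraries was measured as the Euclidean distance between log2(value + 5) profiles, each centred on its own mean. The distance was 0.24 between Cldn3 and Cldn4, 0.26 between Cldn4 and Cldn7, 0.33 between Cldn4 and Cldn6, 0.34 between Cldn3 and Cldn7, 0.49 between Cldn3 and Cldn6 and 0.57 between Cldn6 and Cldn7. From Cldn1 to any of these 4 it was at least 2.96. The 4 genes are set together because they fell, so part of their likeness is built in. Many other genes were as near. In counts that include the reference gene itself, 38 were nearer to Cldn3 than Cldn4 was and 1087 were nearer to Cldn3 than Cldn6 was. In the same way 360 were nearer to Cldn6 than Cldn7 was. The nearest named genes were Kbtbd7 (0.07) and Anxa5 (0.12) for Cldn3, Sh3tc2 (0.11) and Atxn10 (0.11) for Cldn4, Zfp422-ps (0.15) and Adi1 (0.19) for Cldn6, and Psme2b (0.10) and Rad51d (0.10) for Cldn7. Zfp422-ps, at 9 to 26, and Psme2b are near copies of other genes, so their reads may have been split. For Cldn1 they were Glrp1 (0.44) and Lpar1 (0.45), and Glrp1 was at 430 and 462 in KDNTN1, 276 and 331 in KDUNC5B and 83 and 123 in EmptyVector.

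The promoters of 3 claudin genes that fell and of Cldn1, which rose, are shown because these genes moved apart within 1 family. Each run holds the 250 bases before the RefSeq start site on the gene's own strand, 5′ to 3′, at chr5:134946935-134947184 (minus) for Cldn4, chr5:134985964-134986213 (plus) for Cldn3, chr11:69964529-69964778 (plus) for Cldn7 and chr16:26371840-26372089 (minus) for Cldn1, from RefSeq on GRCm38.p6. Capitals mark matches on either strand to GGGCGG (GC box), CACCTG (an E-box of the kind bound by Snail and ZEB repressors), AACCNGTT (Grainyhead-like factors), TGANTCA (AP-1) and TATAAA.
Cldn4: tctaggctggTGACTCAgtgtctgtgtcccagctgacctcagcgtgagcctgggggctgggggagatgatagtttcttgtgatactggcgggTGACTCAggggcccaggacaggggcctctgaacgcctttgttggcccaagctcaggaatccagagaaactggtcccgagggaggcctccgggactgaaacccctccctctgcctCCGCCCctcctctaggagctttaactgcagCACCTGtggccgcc
Cldn3: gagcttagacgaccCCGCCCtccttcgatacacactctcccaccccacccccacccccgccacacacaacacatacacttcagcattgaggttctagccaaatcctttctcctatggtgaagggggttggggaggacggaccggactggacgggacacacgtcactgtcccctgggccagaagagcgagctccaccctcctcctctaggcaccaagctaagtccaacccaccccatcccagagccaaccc
Cldn7: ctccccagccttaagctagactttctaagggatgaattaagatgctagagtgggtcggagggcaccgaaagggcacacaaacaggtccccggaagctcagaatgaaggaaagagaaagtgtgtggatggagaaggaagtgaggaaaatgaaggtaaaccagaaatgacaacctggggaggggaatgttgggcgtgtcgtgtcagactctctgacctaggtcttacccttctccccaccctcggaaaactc
Cldn1: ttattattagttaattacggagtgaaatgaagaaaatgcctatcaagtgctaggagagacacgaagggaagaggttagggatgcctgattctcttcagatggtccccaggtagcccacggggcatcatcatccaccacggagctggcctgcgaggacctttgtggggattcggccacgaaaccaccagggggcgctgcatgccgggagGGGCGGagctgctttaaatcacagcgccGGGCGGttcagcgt

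Each of these motifs was also searched in all 32851 promoter windows of the same length, and none of the marked matches overlaps another. A GC box was found in 32.7% of all windows, an E-box in 17.2%, AP-1 in 6.75%, a TATA motif in 12.4% and the Grainyhead-like motif in 1.79%. Cldn4 held AP-1 matches that begin 240 and 158 bases before the start, a GC box at 44 and an E-box at 14. The window of Cldn1 held GC boxes at 42 and 14 bases before the start and no other of these motifs, and Cldn3 held a GC box at 236. Cldn7 held none of them. The 4 windows were 51.2% (Cldn7) to 62.0% (Cldn4) G and C, beside a median of 52.4% over all windows. The window of Cldn6 is not shown because its RefSeq start lies 116 bases from the GENCODE start. Matches are descriptions of these letters only.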

How the data were processed

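RNA sequencing of 6 libraries was analysed, 2 per group, grouped by their titles. The authors' deposited values were treated as a score: each library's whole numbers total close to 20 M, so they had been scaled and rounded and are not raw counts. Per the submitters' processing notes, HTSeq, Picard and STAR were used, on GRCm38 (mm10). No source used here gives their versions, the annotation, the strand setting or the scaling step. In each library 100% of the values above 0 lay within 0.5 of a multiple of 1 step (1.965 to 3.058), against 52.7% to 66.5% for a step 1 percent higher. Depths and reads come from this step, and no count model was fitted.

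Genes with a mean of at least 20 over the 6 libraries (15330) were fitted on log2(value + 5) with limma 3.58.1 in R 4.3.3, with 3 groups, a variance trend, 3 residual and 5.33 prior degrees of freedom. This scale understates changes of low genes. Tests were 2-sided, with Benjamini-Hochberg adjustment within each comparison. The code was tested on simulated data. With 2 libraries on each side the smallest exact permutation p is 0.333, so none was used. Folds are ratios of group means as deposited. Positions and exon lengths come from GENCODE M21 on GRCm38, which held 49326 of the identifiers. The labels give no batch. A further allele shared by all 3 groups is not reported here. Members and lists were chosen with earlier results of these data known. Named beyond the members were list genes called with a log2 difference of at least 1 in size, and the 2 genes nearest to each called member. Alternatives were other pseudocounts, filters and scalings, no variance trend, a replicate block, a fit of 2 groups, and each library left out in turn. Counting floors cover counting error only.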

Additional observations from a re-analysis of the deposited data

How the results depend on the processing

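Of 135 alternative values for the 9 called differences of members, 28 lost their call and 0 changed sign; Cldn1 and Cldn6 in KDNTN1 against EmptyVector lost none. Counts are given below in the order KDNTN1 against EmptyVector, KDUNC5B against EmptyVector, and KDNTN1 against KDUNC5B. The main counts were 2314, 1835 and 1088 for all genes, 5, 1 and 3 for members and 8, 11 and 1 for the wider list. With no filter they were 1289, 791 and 302, then 4, 0 and 2, then 5, 2 and 1. Without the variance trend they were 1462, 1115 and 454, then 3, 1 and 1, then 5, 3 and 0. A fit of only the 2 groups compared gave 1973, 950 and 1856, then 5, 1 and 5, then 8, 5 and 8. Median-of-ratios and upper-quartile scaling each gave 2 list genes in the third comparison. Leaving out 1 library gave 507 to 2769, 680 to 2428 and 34 to 1842 genes, 2 to 5, 0 to 1 and 0 to 5 members, and 0 to 13, 2 to 12 and 0 to 8 list genes; the lone library left in a group is assumed to vary like the others.

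The labels do not say whether the replicate numbers pair the libraries. Deviations of same-numbered libraries correlated at 0.16 (KDNTN1 and EmptyVector), -0.45 (KDUNC5B and EmptyVector) and -0.169 (both knock-downs). With 2 libraries per group these values cannot decide whether libraries were prepared together. With the replicate number as a block the counts were 1465, 1102 and 459 genes, 3, 1 and 2 members and 5, 5 and 1 list genes.

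Differences that changed sign were never called. In KDUNC5B minus EmptyVector, leaving out 1 library gave Cldn3 -0.031 to 0.21 (-0.027 without EmptyVector library 1), Cldn4 -0.061 to 0.036 (0.015 without EmptyVector library 2) and Cldn7 -0.064 to 0.0029. In KDNTN1 minus KDUNC5B it gave Ocln -0.20 to 0.098 (0.032 without KDNTN1 library 2) and Tjp1 -0.12 to 0.082 (0.036 without KDNTN1 library 2). Tjp1 was also at 0.026 with median-of-ratios and 0.027 with upper-quartile scaling. The cause of these shifts was not tested. Among the members only Tjp3 lay below the filter, and the part of depth in the results of the others was not tested.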
